A study of Mus musculus with 15 samples.

Results

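The collagen chain genes encode the polypeptides that wind in threes into collagen, the main protein of the extracellular matrix. Every probe set whose single gene symbol in the platform annotation had the form Col, a number, a and a number was taken, which gave 82 probe sets for 42 genes out of 18194 genes named by single-symbol probe sets. By the structure that their product forms, 11 of the 42 genes were classed as fibrillar, 8 as basement membrane and 23 as other collagens. Livers of 15 male C57BL/6J mice were measured after 12 weeks of feeding that began at 8 weeks of age, with 1 Affymetrix Mouse Genome expression array per mouse. The CL+CX group (5 mice) received the CL diet with β-cryptoxanthin, a carotenoid, at 0.003% by the treatment text of the labels and by the methods but at 0.005% by the sample titles, so the dose is uncertain here. The CL group (5 mice) received the high-cholesterol and high-fat CL diet, in which 38.23% CRF-1 chow was supplemented with cholesterol (1.25%), sodium cholate (0.5%) and cocoa butter (60%), which the study used as a model of nonalcoholic steatohepatitis. The NC group (5 mice) received CRF-1 standard chow. No group carried a genetic change, and each liver came from a separate mouse. The study asked what the carotenoid does to steatohepatitis brought on by the diet, and the collagen genes bear on the matrix side of that question.

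Fibrillar collagens of types I, III and V build the scar fibers of a fibrotic liver. Type IV collagen and the multiplexins of types XV and XVIII belong to basement membranes, whereas type VI collagen forms beaded filaments and the fibril-associated types XII, XIV and XVI sit on the surface of fibers. In injured liver, activated stellate cells and portal fibroblasts are the main source of the fibrillar chains, sinusoidal endothelial cells contribute type IV collagen, and hepatocytes are a known source of type XVIII collagen.

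The values are MAS5 signals, the brightness of a probe set on a linear scale, after the arrays had been brought to the same 75th percentile, 54.1. A probe set was tested when it reached its array's median, 11.3 to 13.5 after scaling, in all 5 arrays of at least 1 group, and a gene is represented by its probe set with the highest mean signal. Of the 82 collagen probe sets, 23 passed, for 16 of the 42 genes. All 3 groups reached the median for 20 of the 23 probe sets. Col5a2 and the dimmer of the probe sets of Col3a1 passed through the CL group alone. Their differences of CL from NC and of CL from CL+CX were therefore partly fixed by the filter. The dimmer of the probe sets of Col6a2 passed through the CL+CX group alone, so its differences of CL+CX from the other groups were partly fixed too. The other 26 genes were too dim to test. They include the fibrillar genes Col1a1, Col2a1, Col11a1, Col11a2 and Col24a1, and the basement membrane genes Col4a3, Col4a4, Col4a5, Col4a6 and Col15a1. The 16 other collagens that were too dim were Col6a4, Col6a5, Col7a1, Col8a1, Col8a2, Col9a1, Col9a2, Col9a3, Col10a1, Col17a1, Col19a1, Col20a1, Col22a1, Col23a1, Col25a1 and Col26a1. For 10 of these 26 genes, no liver of the 15 reached the array median. Nothing is said here of whether a dim gene was expressed.

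**Figure D1:**
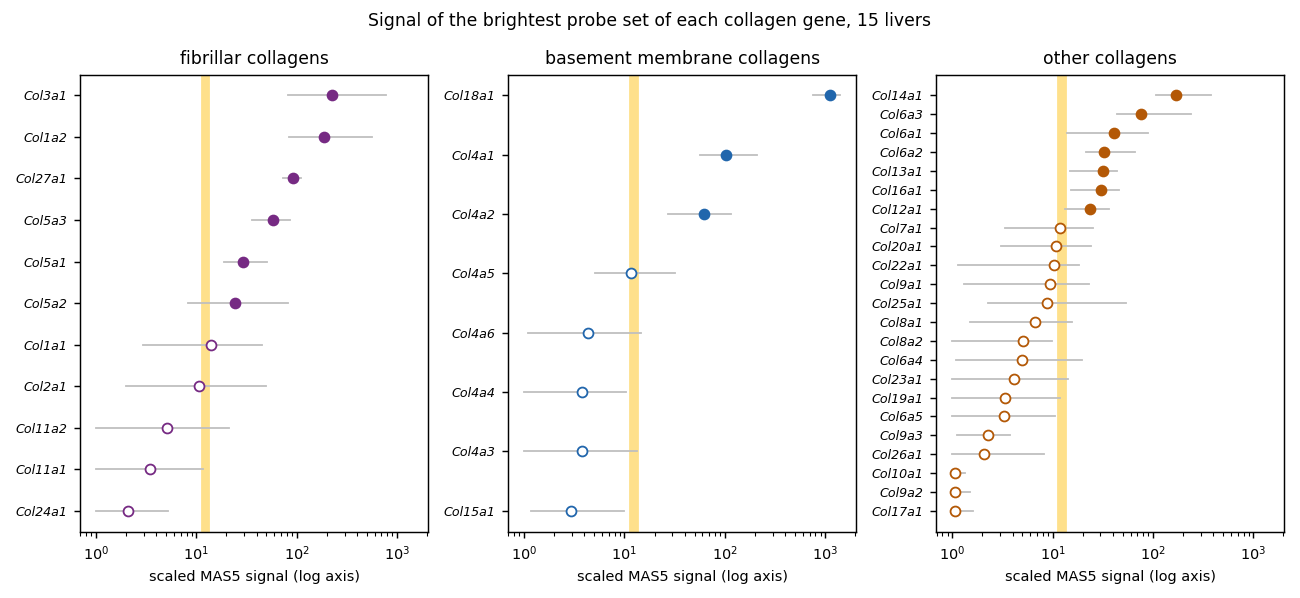
Scaled MAS5 signal (log axis) of the brightest probe set of each of the 42 collagen genes, in 3 panels by class. Circles are the geometric mean of 15 livers, filled for the 16 genes tested and open for the 26 too dim, gray lines run from the lowest to the highest liver, and the yellow band is the range of the array medians, 11.3 to 13.5. Signals of different probe sets are not amounts of RNA on a common scale, so the panels show only which genes clear the band.

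Before scaling, the 75th percentile of the arrays lay between 41.5 and 79.0. CL replicate 2 stood apart. Its mean correlation with the other livers of its group was 0.941, against 0.957 to 0.962 for the other CL livers, 0.967 to 0.972 in CL+CX and 0.964 to 0.969 in NC. The difference between the 3′ and 5′ β-actin control probe sets, a sign of RNA integrity and labeling, was 1.07 ± 0.101 on the log2 scale in CL+CX, 0.82 ± 0.0968 in CL and 0.94 ± 0.0859 in NC (SD, n = 5 each), and every CL+CX array lay above every CL array. The labelled tissue was borne out by the hepatocyte markers, whose summed signal reached 33431 to 40499 in CL+CX, 31238 to 51937 in CL and 46119 to 54039 in NC. Bulk tissue was measured, so more or fewer cells of a type and more or less RNA per cell cannot be told apart.

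Between CL and NC livers, 3 of the 16 collagen genes tested passed, beside 14% of all genes, and the differences went both ways. Col14a1 rose and Col18a1 fell. Col5a2 was also called higher, but it was tested only because all 5 CL livers reached the array median, so its difference was partly selected. Further, the 2 major fibrillar chains that could be tested, Col1a2 and Col3a1, averaged 1.78-fold (Col1a2) and 1.99-fold (Col3a1) the NC level in CL livers, and their brightest probe sets did not pass. With limma and Benjamini-Hochberg adjustment over all 20342 probe sets tested, 6 of the 23 collagen probe sets were called in CL against NC, 4 higher and 2 lower, against a background of 12.2% of all probe sets called, 5.9% higher and 6.35% lower. At the gene level this was 2 of 16 genes higher and 1 lower, where 7.2% and 6.76% of the 10521 genes were called. Among the 20 collagen probe sets that reached the median in all 3 groups, 2 were higher (both of Col14a1) and 2 lower (both of Col18a1), beside 4.95% and 7.13% of the 16530 probe sets that did so. In either direction, 3 of 16 collagen genes were called beside 14% of all genes. At an unadjusted p under 0.05 there were 10 of 23 probe sets, beside 26.7% of all. The methods' test, a variance analysis that allows unequal spreads and is followed by pairwise comparisons, called 1 of 23 (Col14a1), beside 6.78% of all.

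Col14a1, the chain of a fibril-associated collagen that regulates fiber assembly, was the collagen gene that passed in every setting tried, through its brighter probe set. Its signal was 199, 167, 140.2, 157 and 161 in CL+CX livers, 375, 161, 240.2, 273 and 259 in CL livers and 106, 122, 109, 141 and 120.5 in NC livers (replicates 1 to 5 in each). Every CL liver lay above every NC liver, and the CL+CX livers lay between them with overlap on both sides. CL exceeded NC by 1.08 ± 0.18 on the log2 scale (SE), a 2.12-fold difference (limma, adjusted p = 0.00136). The second tested probe set of Col14a1 gave 0.83 ± 0.21 (adjusted p = 0.0169). It lost the call with no filter, the methods' test and the β-actin covariate (adjusted p up to 0.105).

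Type V collagen nucleates type I fibers, and Col5a2 encodes its α2 chain. The signal of Col5a2 was 29.7, 26.6, 19.1, 9.12 and 23.3 in CL+CX livers, 82.1, 23.2, 26.0, 63.4 and 70.1 in CL livers and 11.0, 16.4, 47.8, 13.0 and 8.30 in NC livers. CL replicates 1, 4 and 5 were above all other livers, whereas CL replicates 2 and 3 were below NC replicate 3. The difference of CL from NC was 1.58 ± 0.48 (SE), or 2.99-fold (limma, adjusted p = 0.0409). This call was fragile. Col5a2 lost it in 10 of the 15 fits that left out 1 mouse, with adjusted p up to 0.1, namely without NC replicate 1, 2, 4 or 5, CL replicate 1, 4 or 5, or CL+CX replicate 2, 3 or 5. It also lost it with no filter, the methods' test, the 2 groups alone, the replicate block and the β-actin covariate (adjusted p up to 0.173).

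Col3a1, the chain of type III collagen, and Col1a2, the α2 chain of type I collagen, showed the same order of livers within the CL group. Col3a1 had signals of 326, 269, 168, 107 and 157 in CL+CX livers, 770.0, 89.1, 199.6, 735 and 522 in CL livers and 138, 172, 366, 241 and 81.1 in NC livers. CL replicates 1, 4 and 5 were above every chow-fed liver, and CL replicate 2 was near the bottom of the whole series. The difference between CL and NC was 0.99 ± 0.55 (SE, limma, adjusted p = 0.268). The dimmer Col3a1 probe set, at 12.5 to 56.9 in CL livers and 6.32 to 19.4 in NC livers, was called (1.36 ± 0.41, adjusted p = 0.0429). Its call was lost in 8 of 15 fits with 1 mouse left out (NC replicate 1, 2 or 5, CL replicate 1, 4 or 5, or CL+CX replicate 3 or 5, with adjusted p up to 0.108). The call was also lost with no filter, the methods' test, the 2 groups alone, the replicate block and the β-actin covariate (adjusted p up to 0.192). Col1a2 had signals of 254, 178, 129, 112 and 111 in CL+CX livers, 562, 84.2, 172, 533 and 400.1 in CL livers and 131, 126, 347, 199 and 84.8 in NC livers. Again CL replicates 1, 4 and 5 were highest and CL replicate 2 was the lowest of the 15, and the difference of CL from NC was 0.83 ± 0.49 (SE, limma, adjusted p = 0.294). Col1a1, the partner chain of Col1a2 in type I collagen, was too dim to test at 23.5, 15.8, 11.4, 8.86 and 2.95 in CL+CX livers, 29.3, 5.15, 11.8, 44.9 and 34.9 in CL livers and 7.09, 8.31, 40.8, 21.7 and 9.58 in NC livers. Its low CL livers were also replicates 2 and 3, and the groups overlapped.

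**Figure D2:**
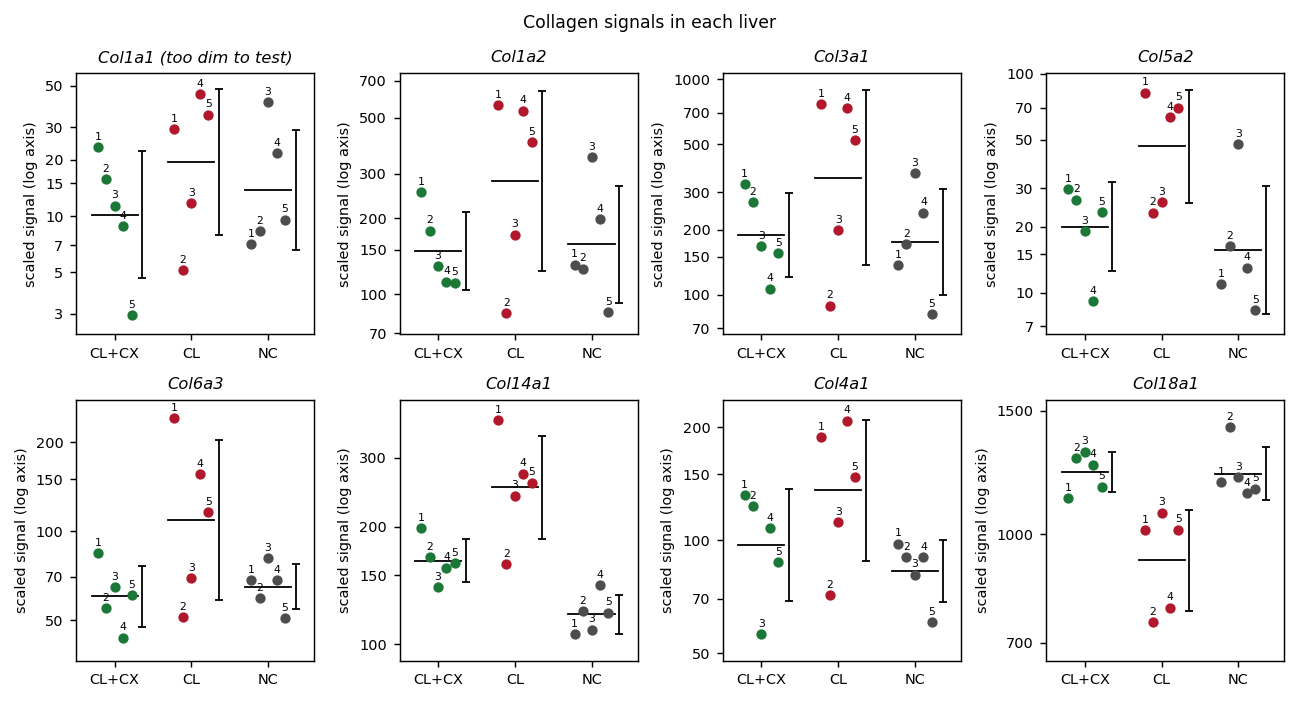
Scaled signal (log axis) of 8 collagen genes in each liver, CL+CX, CL and NC from left to right, with the replicate number beside each point, the mean of the log2 values as a line and ± 1 SD as a bracket. CL replicates 1, 4 and 5 stand high and replicate 2 low in Col1a2, Col3a1, Col5a2 and Col6a3, while Col18a1 is low in all 5 CL livers.

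The remaining fibrillar genes differed less. Col5a1, another type V chain, differed by 0.40 ± 0.24 between CL and NC, and Col5a3 by 0.16 ± 0.24 (SE, limma, adjusted p = 0.318 for Col5a1 and 0.722 for Col5a3). Col27a1, a minor fibrillar chain known from cartilage, gave 83.4 to 106 in CL+CX livers, 74.0 to 97.2 in CL livers and 81.5 to 110.4 in NC livers, with a difference of -0.14 ± 0.12 for CL from NC and a 95% interval of -0.41 to 0.12. The dimmer probe set of Col27a1 differed by -0.38 in CL from NC (interval -0.72 to -0.04, limma, adjusted p = 0.141) and by -0.35 in CL+CX from NC (adjusted p = 0.182). In the annotation order Col3a1 and Col5a2 are neighbors on their chromosome, as are Col4a1 and Col4a2, and Col6a1 and Col6a2.

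Among basement membrane genes, Col18a1 alone passed, and it fell. This gene encodes the core protein from which endostatin, an inhibitor of vessel growth, is cut. Col18a1 gave 1125, 1284, 1311, 1256 and 1168 in CL+CX livers, 1014, 749, 1073, 785 and 1015 in CL livers and 1186, 1421, 1206, 1145 and 1161 in NC livers. All 5 CL livers lay below every liver of both other groups. Col18a1 fell by 0.41 ± 0.12 on the log2 scale in CL against NC, a 1.33-fold decrease (limma, adjusted p = 0.0372). Its second probe set, at 599.7 to 859.5 in CL livers and 917 to 1169.6 in NC livers, fell by 0.50 ± 0.12 (adjusted p = 0.0162). There the CL+CX livers, at 855 to 1029, overlapped the CL livers. Without scaling of the arrays neither Col18a1 probe set passed, with a difference of -0.10 (adjusted p = 0.787) for the first and -0.19 (adjusted p = 0.552) for the second, so the call holds only for scaled arrays. Both probe sets also lost the call with quantile normalization (adjusted p = 0.276 for the first and 0.0879 for the second), the methods' test (0.107 and 0.0832), the 2 groups alone (0.095 and 0.0518), the β-actin covariate (0.094 and 0.0537) and no filter (0.135 and 0.0738). The call of the first probe set was also lost without NC replicate 1, 2, 3 or 5 or CL replicate 4 (adjusted p up to 0.0954), whereas that of the second was kept in all 15 such fits.

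The type IV chains Col4a1 and Col4a2, which form the common network of basement membranes and are transcribed from opposite strands of a shared region, did not pass. Col4a1 gave 132, 123, 56.2, 108 and 87.4 in CL+CX livers, 188, 71.3, 112, 208 and 147 in CL livers and 98.0, 90.0, 81.0, 90.0 and 60.6 in NC livers. In all, 4 of the CL livers exceeded the NC livers and CL replicate 2 lay among them, so that the difference was 0.71 ± 0.28 (SE, limma, adjusted p = 0.115). Col4a2 gave 90.7, 68.0, 42.3, 49.0 and 52.1 in CL+CX livers, 114, 27.1, 56.6, 93.7 and 96.2 in CL livers and 66.7, 62.0, 61.1, 55.8 and 49.6 in NC livers, a difference of 0.23 ± 0.32 between CL and NC (adjusted p = 0.684). CL replicate 2 had the lowest Col4a2 signal of all livers. Col15a1, the other multiplexin, gave 2.79, 6.42, 1.18, 2.26 and 8.76 in CL+CX livers, 2.69, 1.16, 2.73, 9.84 and 2.89 in CL livers and 1.53, 5.29, 1.76, 4.06 and 2.02 in NC livers, and no liver reached the array median.

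Of the remaining collagens, the type VI chains followed the fibrillar pattern without passing. Col6a3, the large α3 chain, gave 84.1, 55.0, 64.6, 43.6 and 60.6 in CL+CX livers, 242, 51.1, 69.4, 156 and 116 in CL livers and 68.3, 59.4, 81.3, 68.5 and 50.9 in NC livers. CL replicates 1, 4 and 5 lay above all NC livers and replicates 2 and 3 among them, with a difference of 0.75 ± 0.33 (SE, limma, adjusted p = 0.154). Col6a1 differed by 0.56 ± 0.35 and Col6a2 by 0.14 ± 0.26 between CL and NC (adjusted p = 0.329 for Col6a1 and 0.776 for Col6a2). Col12a1, a fibril-associated relative of Col14a1, ran the other way at 13.4 to 28.0 in CL livers and 24.1 to 36.3 in NC livers, a difference of -0.63 ± 0.20 that narrowly missed the threshold (adjusted p = 0.0517). Col16a1 differed by 0.30 ± 0.20 and the transmembrane collagen gene Col13a1 by -0.06 ± 0.26 (adjusted p = 0.365 for Col16a1 and 0.903 for Col13a1).

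The CL and NC livers did not overlap in 3 probe sets, the brighter one of Col14a1, which was higher, and both of Col18a1, which were lower. Among all probe sets 4.92% did not overlap with CL higher and 5.21% with CL lower. By class, the median log2 difference of CL from NC was 0.61 for the 6 fibrillar genes tested, 0.23 for the 3 basement membrane genes and 0.30 for the 7 other genes, where the median of all genes tested was -0.08. The difference was above 0 in 5 of 6 fibrillar, 2 of 3 basement membrane and 5 of 7 other genes, against 39.9% of all genes. The fibrillar figures include Col5a2 (1.58), which was tested through the CL group alone, so they were partly selected. All these figures describe the genes that cleared the filter, not the 42, and carry no test.

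**Figure D3:**
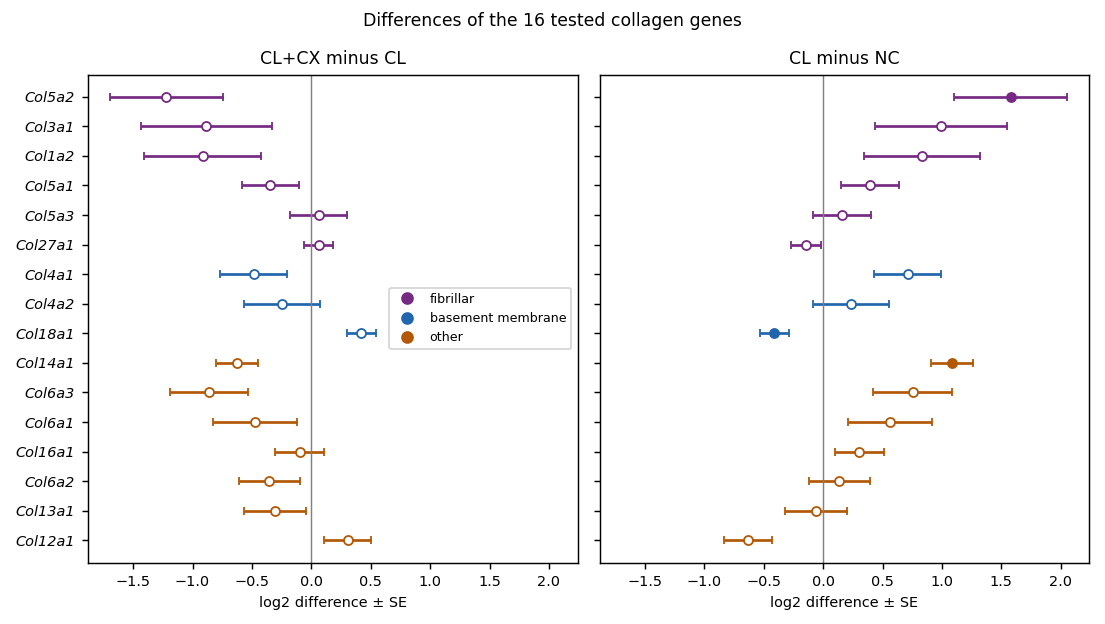
Log2 difference ± SE from limma for the 16 tested collagen genes, ordered by class and by their difference in CL against NC. The left panel is CL+CX minus CL and the right panel CL minus NC, with filled circles for an adjusted p under 0.05. Col5a2, Col14a1 and Col18a1 are filled on the right and no gene is filled on the left.

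In several collagen genes the livers of the CL group differed from one another far more than in most genes. The SD of Col3a1 among the 5 CL livers was 1.35 on the log2 scale, that of Col1a2 1.19, of Col6a3 0.90, of Col5a2 0.86 and of Col4a2 0.84, where the median gene had 0.29. These values lay at or above the 97.3 percentile of the 10521 genes. Col13a1, at the 48.9 percentile, Col18a1, at the 34.3 percentile, and Col27a1, at the 16.4 percentile, varied no more than the typical gene. Col16a1 was at the 52.6 percentile. Some of these genes varied among NC livers too. Their NC SD was 0.82 for Col3a1, 0.77 for Col1a2, 0.25 for Col6a3, 0.97 for Col5a2 and 0.16 for Col4a2, so Col5a2 varied more in NC than in CL. The highest CL liver exceeded the lowest 8.65-fold in Col3a1 and 6.67-fold in Col1a2, but 1.43-fold in Col18a1.

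The CL livers were also ranked alike by many of the genes. Col1a2, Col3a1, Col6a1, Col6a3 and Col14a1 placed CL replicates 1, 4, 5, 3 and 2 in that order from high to low, an order shared by 1.99% of all genes tested. CL replicate 2 was lowest and CL replicate 3 next lowest in 10 of the 16 collagen genes, compared with 8.5% of all genes. The exceptions were Col5a3, Col12a1, Col13a1, Col16a1, Col18a1 and Col27a1. In the other groups, CL+CX replicate 1 was the highest of its group in 10 of 16 genes, and NC replicate 3 the highest of its group in 8 of 16, among them Col1a2, Col3a1 and Col5a2. The order is a description of 5 livers, and what the high livers had in common was not recorded in the labels.

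**Figure D4:**
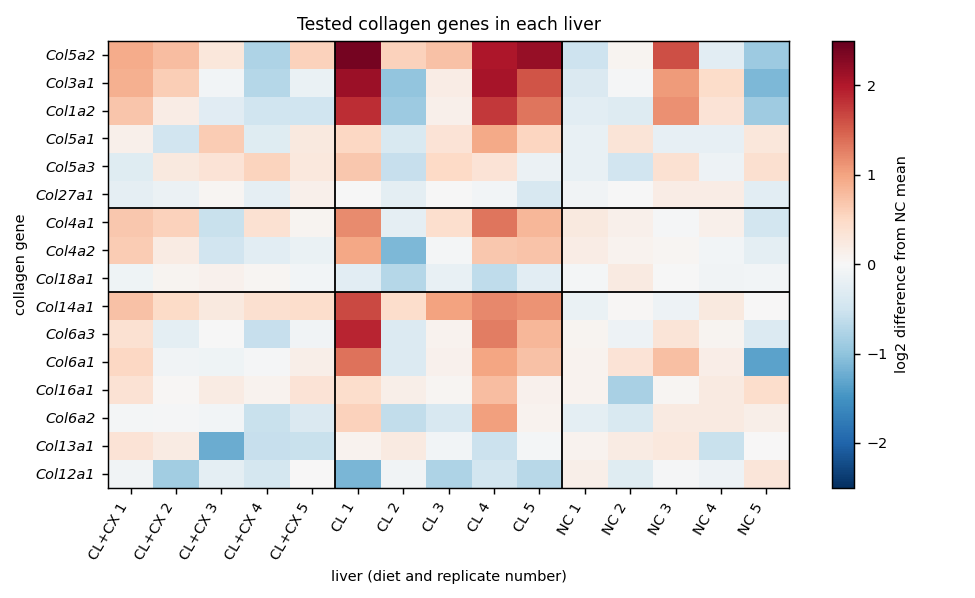
Log2 difference from the NC mean for each of the 16 tested collagen genes (rows, by class) in each liver (columns, CL+CX, CL and NC with replicate numbers), red for higher and blue for lower. Red is concentrated in CL replicates 1, 4 and 5 for Col5a2, Col3a1, Col1a2 and Col6a3, and Col18a1 is blue in all 5 CL columns.

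Because CL replicate 2 stood apart, the counts were repeated without it, a choice among the alternatives that leave out 1 mouse. It was the lowest CL liver in 12 of the 16 collagen genes, among them Col1a2, Col3a1, Col4a1 and Col6a3. Leaving it out had to raise the CL mean of those genes. The calls gained were therefore partly fixed by the choice of liver. Without CL replicate 2, 12 of 24 collagen probe sets were called in CL against NC, 9 higher and 3 lower, against 18.9% of all probe sets. Col1a2 then differed from NC by 1.27 (adjusted p = 0.0488), Col3a1 by 1.48 (adjusted p = 0.0419), Col4a1 by 0.94 (adjusted p = 0.0181), Col6a3 by 1.03 (adjusted p = 0.0251) and Col12a1 by -0.77 (adjusted p = 0.0131), all with limma.

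Upstream sequences of Col1a2 and Col3a1, which ranked the CL livers identically, are shown beside those of Col18a1, the gene that ran opposite, to let their promoters be compared. The 250 bases before each RefSeq start (GRCm38.p6, written on the strand of the gene, 5′ to 3′) are in lower case, with capitals at matches on either strand to the CCAAT box (CCAAT), the TATA box (TATAAA), the GC box (GGGCGG) and the core of the Smad-binding element (CAGAC). None of the motifs contains another.
Col1a2, chr6:4505368-4505617, plus strand: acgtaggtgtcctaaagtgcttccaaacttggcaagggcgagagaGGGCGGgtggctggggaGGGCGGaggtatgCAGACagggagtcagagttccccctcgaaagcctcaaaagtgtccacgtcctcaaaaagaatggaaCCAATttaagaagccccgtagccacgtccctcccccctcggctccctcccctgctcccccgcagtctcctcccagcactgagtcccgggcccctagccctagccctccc
Col3a1, chr1:45311288-45311537, plus strand: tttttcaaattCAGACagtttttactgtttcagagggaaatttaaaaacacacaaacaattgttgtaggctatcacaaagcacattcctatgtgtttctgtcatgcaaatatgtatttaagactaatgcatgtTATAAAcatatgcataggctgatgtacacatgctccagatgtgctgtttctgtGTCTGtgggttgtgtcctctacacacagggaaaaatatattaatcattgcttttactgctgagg
Col18a1 upstream start, chr10:77166531-77166780, minus strand: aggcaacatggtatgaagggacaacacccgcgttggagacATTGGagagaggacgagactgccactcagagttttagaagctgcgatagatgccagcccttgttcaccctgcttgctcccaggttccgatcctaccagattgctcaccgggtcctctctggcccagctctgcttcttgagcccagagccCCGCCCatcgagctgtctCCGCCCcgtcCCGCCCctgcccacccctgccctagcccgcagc
Col18a1 downstream start, chr10:77113706-77113955, minus strand: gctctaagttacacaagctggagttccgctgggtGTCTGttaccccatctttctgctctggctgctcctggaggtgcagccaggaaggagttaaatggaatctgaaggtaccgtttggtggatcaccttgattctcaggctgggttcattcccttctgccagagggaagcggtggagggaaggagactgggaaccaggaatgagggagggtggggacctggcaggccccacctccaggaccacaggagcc
The Col1a2 window held 1 CCAAT box, 2 GC boxes and 1 Smad core, and the Col3a1 window held 1 TATA box and 2 Smad cores but neither of the other motifs. The upstream Col18a1 window held 1 CCAAT box and 3 GC boxes, and the downstream window held 1 Smad core. Among all 32851 RefSeq windows of the same length, 33.8% had a CCAAT box, 12.4% a TATA box, 32.7% a GC box and 42.2% a Smad core. Of the 15 windows found for 13 of the 16 tested collagen genes, 6 had a CCAAT box, 2 a TATA box, 9 a GC box and 8 a Smad core. A match, also where it is called a box here, is a string of letters at any distance from the start in this window. It says nothing of binding or of a working TATA box. Col5a2, Col12a1 and Col14a1 had no entry.

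With β-cryptoxanthin added to the CL diet, no collagen probe set passed the test against the CL diet alone. Col1a2, Col3a1, Col5a1, Col5a2 and Col14a1 had lower means and Col18a1 a higher mean in CL+CX livers than in CL livers, with no difference past the threshold. With limma, 0 of 23 probe sets had an adjusted p under 0.05, where 3.13% of all probe sets did, and 7 had an unadjusted p under 0.05, against 19.7% of all. The methods' test also called 0, beside 3.83% of all probe sets. In 1 probe set its pairwise comparison gave p under 0.05 before adjustment over probe sets. That p already allows for the 3 pairs of groups, unlike the unadjusted p of limma. The 2 genes nearest to the threshold were Col14a1, with a difference of -0.62 ± 0.18 (SE) and an adjusted p of 0.07, and Col18a1, with 0.42 ± 0.12 and an adjusted p of 0.0709. In the brighter Col18a1 probe set the CL+CX and CL livers did not overlap, which held for 3.01% of all probe sets in the higher direction. The brighter probe sets of both genes passed with an offset of 16, with a trend and robust prior, and with a stricter filter. Adjusted p was then 0.0326 to 0.0411 for Col14a1 and 0.0359 to 0.0472 for Col18a1. The brighter one of Col14a1 also passed without CL replicate 2 (-0.79, adjusted p = 0.0205), when 2.34% of all probe sets were called. That liver had its lowest signal in the CL group, so leaving it out had to widen the difference. The second probe sets gave -0.54 ± 0.21 for Col14a1 and 0.34 ± 0.12 for Col18a1 (SE, limma, adjusted p = 0.159 and 0.143). Their livers overlapped, and each was called in 0 of 25 alternatives.

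Of the fibrillar genes, Col5a2 differed by -1.22 ± 0.48 between CL+CX and CL (SE, limma, adjusted p = 0.166), Col1a2 by -0.91 ± 0.49 (adjusted p = 0.323), Col3a1 by -0.88 ± 0.55 (adjusted p = 0.406) and Col5a1 by -0.34 ± 0.24 (adjusted p = 0.469). The 95% interval for Col1a2 ran from -1.95 to 0.13 and that for Col3a1 from -2.06 to 0.29, and both intervals include 0. No CL+CX liver reached the signal of CL replicates 1, 4 or 5 in Col1a2, Col3a1 or Col5a2. Col5a3 and Col27a1 each differed by 0.06. Among basement membrane genes Col4a1 differed by -0.48 ± 0.28 and Col4a2 by -0.25 ± 0.32, and among the others Col6a3 by -0.86 ± 0.33, Col6a1 by -0.47 ± 0.35, Col6a2 by -0.35 ± 0.26, Col13a1 by -0.31 ± 0.26, Col16a1 by -0.10 ± 0.20 and Col12a1 by 0.31 ± 0.20. The median was -0.61 for fibrillar, -0.25 for basement membrane and -0.35 for other collagen genes, beside 0.02 for all genes. Below 0 were 17 of 23 probe sets, where 55.7% of all probe sets were above it. The fibrillar median includes Col5a2, and the 17 include Col5a2 and the dimmer Col3a1 probe set. Both were tested through the CL group alone, so these figures were partly selected and carry no test.

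Between CL+CX and NC livers no collagen gene passed either. With limma, 0 of 23 collagen probe sets passed between CL+CX and NC, against 9.79% of all probe sets, and 2 had an unadjusted p under 0.05, against 26.6% of all. The methods' test called 1, Col14a1, beside 8.92% of all probe sets. The median difference was 0.08 for fibrillar, 0.01 for basement membrane and -0.11 for other genes, with -0.04 for all genes tested. The widest gaps were in Col14a1, at 0.46 ± 0.18 (SE, limma, adjusted p = 0.114), and in Col13a1, at -0.37 ± 0.26 (adjusted p = 0.387). The comparison shares its NC livers with CL against NC and its CL+CX livers with CL+CX against CL, so these results are not independent of one another.

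Averaged over genes, the fibrillar class lay 0.10 ± 0.25 above the NC mean in CL+CX livers and 0.64 ± 0.70 above it in CL livers on the log2 scale, with an SD of 0.43 among NC livers (n = 5 each). Single CL livers ranged from -0.42 for replicate 2 to 1.26 for replicate 1. The fibrillar averages include Col5a2, which was tested through the CL group alone. The basement membrane class lay 0.07 ± 0.28 above the NC mean in CL+CX livers and 0.18 ± 0.52 in CL livers, and the other collagens -0.04 ± 0.22 in CL+CX livers and 0.31 ± 0.35 in CL livers. In all 3 classes the CL livers had the widest spread.

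**Figure D5:**
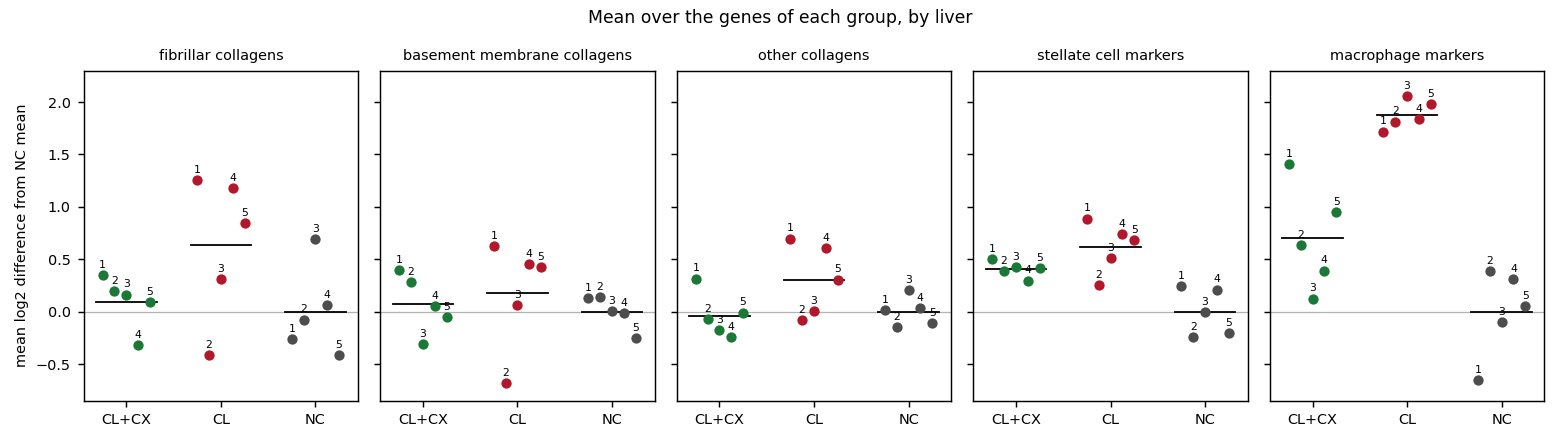
Mean log2 difference from the NC mean over the tested genes of 3 collagen classes, of 9 stellate cell markers and of 7 macrophage markers, for each liver of CL+CX, CL and NC from left to right, with replicate numbers and group means as lines. The fibrillar values of CL livers run from -0.42 to 1.26, whereas their macrophage values lie between 1.72 and 2.05. The fibrillar genes include Col5a2, which was tested through the CL group alone.

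Genes that make, cut, bind and sense collagen were taken from the same fit. Of 14 tested genes for chain modification, folding and export, 2 fell in CL against NC and none rose. They were Mia3 (-0.70, limma, adjusted p = 0.00235) and Sec23a (-0.45, adjusted p = 0.00559), which serve the export of procollagen from the endoplasmic reticulum. Serpinh1, the collagen chaperone, differed by 0.83 ± 0.27 (adjusted p = 0.0552). Between CL+CX and CL, P4ha1, a prolyl hydroxylase subunit, fell (-0.98, adjusted p = 0.0206), as did Crtap (-0.52, adjusted p = 0.0478), and Mia2, another export factor, rose (1.15, adjusted p = 0.0454). These calls, like all 13 list calls of CL+CX against CL given here, were lost when the β-actin control difference entered the fit as covariate (lowest adjusted p = 0.634, all 13 with the same sign), and 1 probe set of the whole array was then called. The covariate separates these groups completely, so its part and that of the diet cannot be told apart. Of the 26 list calls of CL against NC, 15 were kept with it, while calls over the whole array went from 2491 to 1139 probe sets. These were 26 and 13 calls among 94 list genes tested. Background shares at the gene level were 14% for CL against NC (7.2% higher, 6.76% lower). For CL+CX against CL they were 3.26% (1.48% higher, 1.78% lower).

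Of the 3 tested genes of propeptide cleavage, Bmp1, the procollagen C-proteinase, fell in CL livers (-0.72, limma, adjusted p = 0.000843), and its enhancer Pcolce2 rose (1.39, adjusted p = 0.0203). Of 3 cross-linking genes, the transglutaminase Tgm2 rose (0.68, adjusted p = 0.0171). Lox, the lysyl oxidase that cross-links fibers, was too dim to test. Of 6 receptors, Lair1, an inhibitory collagen receptor of leukocytes, rose in CL against NC (1.42, adjusted p = 0.00789), and Itgb1, the β1 integrin chain, fell in CL+CX against NC (-0.61, adjusted p = 0.0158). Of 11 proteins that bind collagen, Dcn (0.67, adjusted p = 0.00291) and Sparc (0.78, adjusted p = 0.0204) rose in CL livers, and Dcn, which encodes decorin, was also lower in CL+CX than in CL livers (-0.51, adjusted p = 0.0388). Lum, encoding lumican, differed by -1.21 between CL+CX and CL (adjusted p = 0.0551). Of all genes, 7.2% were called higher and 6.76% lower in CL against NC. Called lower were 1.78% in CL+CX against CL and 4.85% in CL+CX against NC.

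Of 9 laminins and other basement membrane partners of type IV collagen, Nid1 rose in CL livers (0.98, limma, adjusted p = 0.034), while Lama3 (-0.84, adjusted p = 0.0488) and Lamb3 (-1.53, adjusted p = 0.0422), 2 chains of one laminin, fell. Of 15 genes of TGF-β and PDGF signaling, Pdgfc rose (0.83, adjusted p = 0.0412) and the signal transducers Smad2 (-0.38, adjusted p = 0.0219) and Smad4 (-0.41, adjusted p = 0.0218) fell. Ccn2, a matricellular gene that TGF-β induces, was the member lowered in CL+CX against CL (-1.53 ± 0.24, adjusted p = 0.00604), at 60.9 to 81.0 in CL+CX livers and 115 to 303 in CL livers. The 3 TGF-β ligand genes Tgfb1, Tgfb2 and Tgfb3 were too dim to test. Beside these counts, 7.2% of all genes were higher and 6.76% lower in CL against NC, and 1.78% lower in CL+CX against CL.

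Markers of the cells that make collagen were measured beside it. Among all genes 7.2% were called higher and 6.76% lower in CL against NC. The shares were 1.48% and 1.78% in CL+CX against CL. Of 9 stellate cell markers, Colec11 (0.77, limma, adjusted p = 0.00023), Hand2 (0.73, adjusted p = 0.0283) and Ngfr (1.22, adjusted p = 0.0429) rose in CL against NC, and none passed in CL+CX against CL. Their summed signal was 1481 to 1778 in CL+CX livers, 1779 to 2424 in CL livers and 1252 to 1482 in NC livers. Of 4 tested genes of myofibroblasts and portal fibroblasts, Tagln rose (1.05, adjusted p = 0.0392), whereas Acta2, which encodes α-smooth muscle actin, did not pass (0.42 ± 0.30, adjusted p = 0.404). All 7 macrophage markers (Clec4f, Cd68, Adgre1, Csf1r, C1qb, Lyz2 and Tyrobp) rose in CL against NC, by 1.07 for Clec4f to 3.05 for Lyz2 (adjusted p = 0.0473 and 4.79e-05), and all but Clec4f and Csf1r fell in CL+CX against CL. Their summed signal was 1396 to 3325 in CL+CX livers, 4424 to 5059 in CL livers and 718 to 1626 in NC livers. The mean of the macrophage list lay 1.72 to 2.05 above the NC mean in every CL liver. Of 9 sinusoidal endothelial markers, none passed in CL against NC, and Clec4g (-0.83, adjusted p = 0.0349) and Oit3 (-0.97, adjusted p = 0.0282) fell in CL+CX against CL. Of the bile duct markers only Sox9 could be tested, and it fell in CL+CX against CL (-1.13, adjusted p = 0.0141), with Krt7, Krt19 and Epcam too dim. Of 5 hepatocyte markers, Tat fell in CL against NC (-1.07, adjusted p = 0.0125). The mean of the stellate list was lowest among CL livers in replicate 2, at 0.26 above the NC mean, and highest in replicate 1, at 0.89, and the hepatocyte mean was 0.01 in replicate 2 and -0.83 to -0.27 in the other CL livers. The part of these cell types in the collagen differences was not tested.

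Between CL+CX and NC livers, 11 of the 94 list genes tested were called, beside 9.96% of all genes. P4ha1 (-0.67, limma, adjusted p = 0.0408), Bmp1 (-0.62, adjusted p = 0.00415), Itgb1 and Ccn2 (-0.90, adjusted p = 0.0258) were lower in CL+CX, and Tgm2 was higher (0.62, adjusted p = 0.0317). Of the cell markers, Colec11 (0.42, adjusted p = 0.0169), Lyz2 (1.62, adjusted p = 0.00461) and Tyrobp (0.97, adjusted p = 0.0496) were higher, and the sinusoidal markers Lyve1 (-1.40, adjusted p = 0.0106) and Oit3 (-0.86, adjusted p = 0.021) and the hepatocyte marker Tat (-1.52, adjusted p = 0.00243) were lower. With the β-actin covariate 4 of the 11 were kept, those of Bmp1, Colec11, Lyz2 and Tat, while calls over the whole array went from 1991 to 663 probe sets.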

How the data were processed

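Liver RNA of 15 mice was hybridized by the authors to 1 Affymetrix Mouse Genome expression array each, and the deposited values are MAS5 signals, linear intensities of probe sets not yet scaled between arrays. Diet groups came from the labels. As in the methods, arrays were brought to the same 75th percentile (54.1), values under 1 were raised to 1 (11.3% of values), and log2 was taken. Control probe sets were left out. Detection calls were not used here, so a probe set was tested if 1 group or more had all 5 of its arrays reaching the array median, which left 20342. A single limma 3.58.1 model (R 4.3.3) held the 3 group means, with Benjamini-Hochberg adjustment over all probe sets tested and a threshold of 0.05. All 3 pairs of groups were compared. Intensities carry no counts, so the 5 arrays per group limit the precision, and p-values measure the spread between mice.

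The collagen genes, their classes, the gene lists and the alternatives were chosen with earlier results of these data known. Every tested collagen gene is named. Values per liver are given for collagen genes called and for Col1a1, Col1a2, Col3a1, Col4a1, Col4a2, Col5a2, Col6a3, Col14a1, Col15a1 and Col18a1. From the lists, called members and at most 4 others are named, and these lists were described by counts, with no set test. Gene names came from the platform annotation, in which 34958 probe sets had 1 symbol. Alternatives were quantile normalization, deposited signals without scaling, an offset of 16, testing every probe set, a filter at the 75th percentile, limma's robust prior with a trend, the methods' test, fits of only 2 groups, the replicate block, a β-actin covariate, averaged probe sets per gene, and each mouse left out. The script was tested on simulated data. Figures were drawn with matplotlib 3.10.9.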

Additional observations from a re-analysis of the deposited data

Results flagged for a closer look

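Among 72 groups of 5 livers examined, over the 23 tested probe sets and Col1a1, 4 held a liver whose gap to its nearest neighbor exceeded Dixon's 95% critical value of 0.71 of the group's log2 range. Chance flags about 1 in 20 groups. Col6a2 (dimmer probe set) was 2.76 in CL replicate 2 and 43.5 to 85.5 in the other CL livers. Col5a1 (dimmer probe set) was 32.6 in CL+CX replicate 1 and 19.1 to 21.4 in the other CL+CX livers. Col18a1 was 1421 in NC replicate 2 and 1145 to 1206 in the other NC livers, and its second probe set was 1029 in CL+CX replicate 3 and 855 to 897 in the other CL+CX livers.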

How the results depend on the processing

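With limma, 6 of 23 collagen probe sets were called in CL against NC, beside 12.2% of all probe sets. Shares of all probe sets called are in parentheses below. The number was 1 of 82 when unfiltered (2.5%), 4 of 8 with the stricter filter (19.6%) and 4 of 23 with signals as deposited (11.4%). It was 1 of 23 by the methods' test (6.78%), 2 of 23 with only the 2 groups (8.35%) and 1 of 23 with the β-actin covariate (5.6%). With 1 mouse left out it ranged from 3 to 12, beside 8.43% to 18.9%. It was 12 without CL replicate 2, and 3 without NC replicate 1, 2 or 5 or CL replicate 4. In CL+CX against CL, 0 of 23 were called (3.13%). The stricter filter called 2 of 8 (7.26%), the offset 2 of 23 (4.89%) and the robust prior 2 of 23 (4.06%), each time Col14a1 and Col18a1. Leaving out 1 mouse gave 0 to 1 (0.512% to 4.72%). In CL+CX against NC the methods' test (8.92%) and the fit of 2 groups (15.7%) each called 1 of 23, Col14a1. Leaving out 1 mouse gave 0 to 1 (5.83% to 14.7%). With the replicate block, 3 of 23 probe sets were called in CL against NC (10.5%), 0 in CL+CX against CL (1.8%) and 0 in CL+CX against NC (8.21%). Same-numbered livers deviated together little (r from -0.0142 to 0.135 for CL and NC). However, 6 of 10 CL and NC livers correlated best with the liver of their own number. The same held for 0 of 10 in CL+CX and CL and 1 of 10 in CL+CX and NC. Whether the numbers pair the mice cannot be told from these values.

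Class medians moved as follows. With the stricter filter the other collagens gave 1.08 in CL against NC, -0.62 in CL+CX against CL and 0.46 in CL+CX against NC, and the fibrillar genes -0.88 in CL+CX against CL, where no filter gave -0.34. As deposited, the other collagens gave 0.14 in CL+CX against NC. With 1 mouse left out, medians of fibrillar, basement membrane and other genes ran from 0.43 to 0.98, 0.05 to 0.57 and 0.10 to 0.52 in CL against NC, from -1.35 to -0.41, -0.59 to -0.0685 and -0.54 to -0.27 in CL+CX against CL, and from -0.01 to 0.26, -0.04 to 0.10 and -0.23 to 0.01 in CL+CX against NC.

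Signals as deposited moved the median of all probe sets to 0.23 in CL against NC (-0.09 after scaling) and 0.21 in CL+CX against NC (-0.03 after scaling), and 96.2% of calls in CL against NC were then higher, against 48.2% after scaling. For CL+CX against CL these shares were 28.4% and 50.5%, and for CL+CX against NC 90.3% and 49.1%. Directions turned with signals as deposited for Col13a1 (0.25) and Col27a1 (0.17) in CL against NC, for Col5a3 (-0.00865) and Col27a1 (-0.00891) in CL+CX against CL, and for Col1a2 (0.16), Col4a2 (0.23), Col6a2 (0.0281), Col6a3 (0.14), Col18a1 (0.0818, second probe set) and Col27a1 (0.16) in CL+CX against NC. They turned with the β-actin covariate for Col5a1 (0.0584) and Col5a3 (-0.0107) in CL+CX against CL and for Col4a2 (0.0776) and Col6a3 (0.0726) in CL+CX against NC. None of these differences was called. With 1 mouse left out, differences that crossed 0 ran from -0.20 to 0.0542 (Col13a1) and -0.0836 to 0.32 (Col6a2) in CL against NC; from -0.16 to 0.0188 (Col16a1), -0.00238 to 0.10 (Col27a1) and -0.12 to 0.19 (Col5a3) in CL+CX against CL; and, in CL+CX against NC, from -0.0156 to 0.0634 (Col18a1), -0.30 to 0.20 (Col1a2), -0.17 to 0.37 (Col3a1), -0.0119 to 0.42 (its dimmer probe set), -0.17 to 0.10 (Col4a2), -0.10 to 0.18 (Col5a1), -0.24 to 0.28 (Col6a1) and -0.23 to 0.00873 (Col6a3). The causes were not tested. Probe sets near the array median carry little signal over background, which limits what can be said of the dim genes.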
